A study of Gallus gallus with 24 samples.

Results

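The genes described are those of the circadian clock, measured in the ileum of broilers, and they were chosen by name. Of 10 names, 9 matched a gene of the table, which holds 25339 genes. ARNTL, CLOCK, NPAS2, PER2, PER3, CRY1, CRY2, RORA and NFIL3 were followed in every bird, and CIART was not analysed here.

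The question was how honokiol and magnolol in the diet change the response of the gut of Arbor Acres broilers to an oral dose of Salmonella pullorum (S. pullorum). Ileum RNA of 24 birds aged 14 d was sequenced, 6 in each of 4 groups, with 1 bird from each replicate cage. The SPM birds received 0.5 mL of S. pullorum by mouth on d 5 and ate the basal diet with 300 mg/kg magnolol. The SPH birds were challenged in the same way and ate the basal diet with 300 mg/kg honokiol. The SP birds were challenged and ate the basal diet alone. The CTL birds were given 0.5 mL of sterile PBS on d 5 and had the basal diet alone. All birds were killed after a fast of 12 h. The cages of CTL birds stood apart from those of challenged birds, so that place of rearing and challenge cannot be told apart. The hour at which each bird was killed is not given in the sources used here, so its part in any difference between birds was not tested.

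The clock is a loop of transcription that runs in almost every cell over about a day. From work in mammals, ARNTL (also called BMAL1) pairs with CLOCK or NPAS2 and switches on the PER and CRY genes, whose proteins then block that pair. The nuclear receptors NR1D1 and NR1D2 hold ARNTL down, RORA and its relatives raise it, and NFIL3 works against a family of activators at clock output genes. In the gut of mammals the loop is set by light through the brain and also by the time of feeding, and ARNTL and PER3 peak at nearly opposite times of day.

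Reads on genes ran from 14393822 to 19435410 per bird, with a median of 16234879. The deposited FPKM (fragments per kilobase of gene, scaled by a factor for each bird) were used throughout. That factor was not in proportion to the reads on genes of the bird. Differences are on the scale of log2(FPKM + 0.1). The median correlation of a bird with the others of its group ran from 0.951 to 0.965. Genes with reads ran from 17997 (SPH 6) to 18882 (SP 5). The labels give the tissue as ileum, although the extraction text speaks of retinas, and the enterocyte list (7 of 8 genes matched, none at 0 in all birds) summed to 9609 to 18717 FPKM in SPM birds, 9988 to 15103 FPKM in SPH birds, 7499.6 to 19205 FPKM in SP birds and 9636 to 15208 FPKM in CTL birds. Transcripts of the W chromosome, which female birds carry, were present in 16 birds and not in 8. They were present in 4 of 6 SPM birds, 3 of 6 SPH birds, 3 of 6 SP birds and 6 of 6 CTL birds, so that a CTL group made up of birds with W transcripts and the lack of challenge cannot be told apart.

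Among the clock genes, CRY1 had the highest level, at a mean of 69.1 FPKM over the 24 birds. It was followed by PER2 (49.8 FPKM), CRY2 (34.7 FPKM), NPAS2 (20.3 FPKM), CLOCK (14.7 FPKM), ARNTL (9.63 FPKM), NFIL3 (7.92 FPKM), PER3 (3.25 FPKM) and RORA (2.81 FPKM). The repressors CRY1, PER2 and CRY2 thus stood above each activator in mean level. Within single birds this order was firm at 3 steps: CRY2 was above NPAS2, CLOCK above ARNTL, and NFIL3 above PER3 in 24 of 24 birds. It was least firm at the lower end, where PER3 was above RORA in 17 of 24 birds, and between NPAS2 and CLOCK, with NPAS2 the higher in 19 of 24. Over all birds the ranges of each gene and the next one in the order overlapped.

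Of the activators, only NPAS2 varied widely. ARNTL, on chromosome 5 (7820343 to 7864789, minus strand), ran from 6.61 to 11.8 FPKM (median 10.7) in SPM birds, 5.84 to 11.2 (median 9.63) in SPH birds, 7.40 to 10.6 (median 9.89) in SP birds and 7.99 to 11.4 (median 9.26) in CTL birds. All 4 groups overlapped. The lowest levels were those of SPH 6, SPM 4 and SP 4, followed by CTL 4 (7.99 FPKM) and SPH 4 (8.64 FPKM). CLOCK, on chromosome 4 (65084415 to 65108758, plus strand), ran from 11.7 to 17.8 FPKM (median 14.3) in SPM birds, 11.5 to 19.5 (median 15.1) in SPH birds, 12.2 to 17.0 (median 14.4) in SP birds and 10.8 to 17.7 (median 14.5) in CTL birds. It was the steadiest of the 9 genes, with a highest value 1.80 times its lowest. NPAS2, the relative of CLOCK on chromosome 1 (134540472 to 134668511, plus strand), ran from 11.9 to 36.02 FPKM (median 24.97) in SPM birds, 17.9 to 34.5 (median 21.3) in SPH birds, 9.61 to 21.9 (median 16.9) in SP birds and 7.55 to 22.9 (median 16.4) in CTL birds. Its 2 supplemented groups reached higher than SP and CTL birds did, while SPM 5 at 11.9 FPKM lay among the low birds.

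Among the repressors, PER2, on chromosome 9 (5655084 to 5680030, minus strand), ran from 46.7 to 59.7 FPKM (median 56.0) in SPM birds, 24.4 to 60.2 (median 53.9) in SPH birds, 26.6 to 58.9 (median 41.7) in SP birds and 40.8 to 70.6 (median 57.1) in CTL birds. SPM birds were close together, whereas 4 of the 5 lowest birds were SPH 6, SP 4, SP 5 and SP 6. PER3, on chromosome 21 (291189 to 310409, minus strand), ran from 2.31 to 5.74 FPKM (median 2.90) in SPM birds, 2.22 to 4.92 (median 3.20) in SPH birds, 1.98 to 3.51 (median 2.56) in SP birds and 2.61 to 4.41 (median 3.89) in CTL birds. The highest level of all was that of SPM 4, and all SP birds were below the CTL median.

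CRY1, on chromosome 1 (53591410 to 53626354, minus strand), ran from 51.3 to 116 FPKM (median 79.9) in SPM birds, 46.0 to 80.0 (median 65.2) in SPH birds, 33.2 to 84.4 (median 71.2) in SP birds and 52.6 to 73.3 (median 62.4) in CTL birds. Again SP 4, SPH 6 and SPM 4 were the 3 lowest birds. CRY2, on chromosome 5 (24183069 to 24201831, minus strand), ran from 28.3 to 43.8 FPKM (median 39.3) in SPM birds, 20.7 to 39.7 (median 37.2) in SPH birds, 28.3 to 34.7 (median 30.0) in SP birds and 30.6 to 41.0 (median 38.7) in CTL birds. SP birds sat in a narrow band, with 6 of 6 below the CTL median.

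RORA, an activator of ARNTL on chromosome 10 (5138735 to 5486292, plus strand), was the lowest of the 9 genes, with 84 to 233 reads per bird. It ran from 2.39 to 3.97 FPKM (median 2.92) in SPM birds, 1.69 to 3.58 (median 2.72) in SPH birds, 2.04 to 3.44 (median 2.98) in SP birds and 2.30 to 3.33 (median 2.64) in CTL birds. NFIL3, a repressor at clock output genes that lies on chromosome Z (44356123 to 44369961, minus strand), ran from 6.20 to 15.0 FPKM (median 8.84) in SPM birds, 5.68 to 8.99 (median 6.16) in SPH birds, 4.35 to 14.1 (median 8.20) in SP birds and 6.26 to 7.94 (median 7.01) in CTL birds. CTL birds stayed within a narrow band, whereas SP birds lay on both sides of it.

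**Figure D1:**
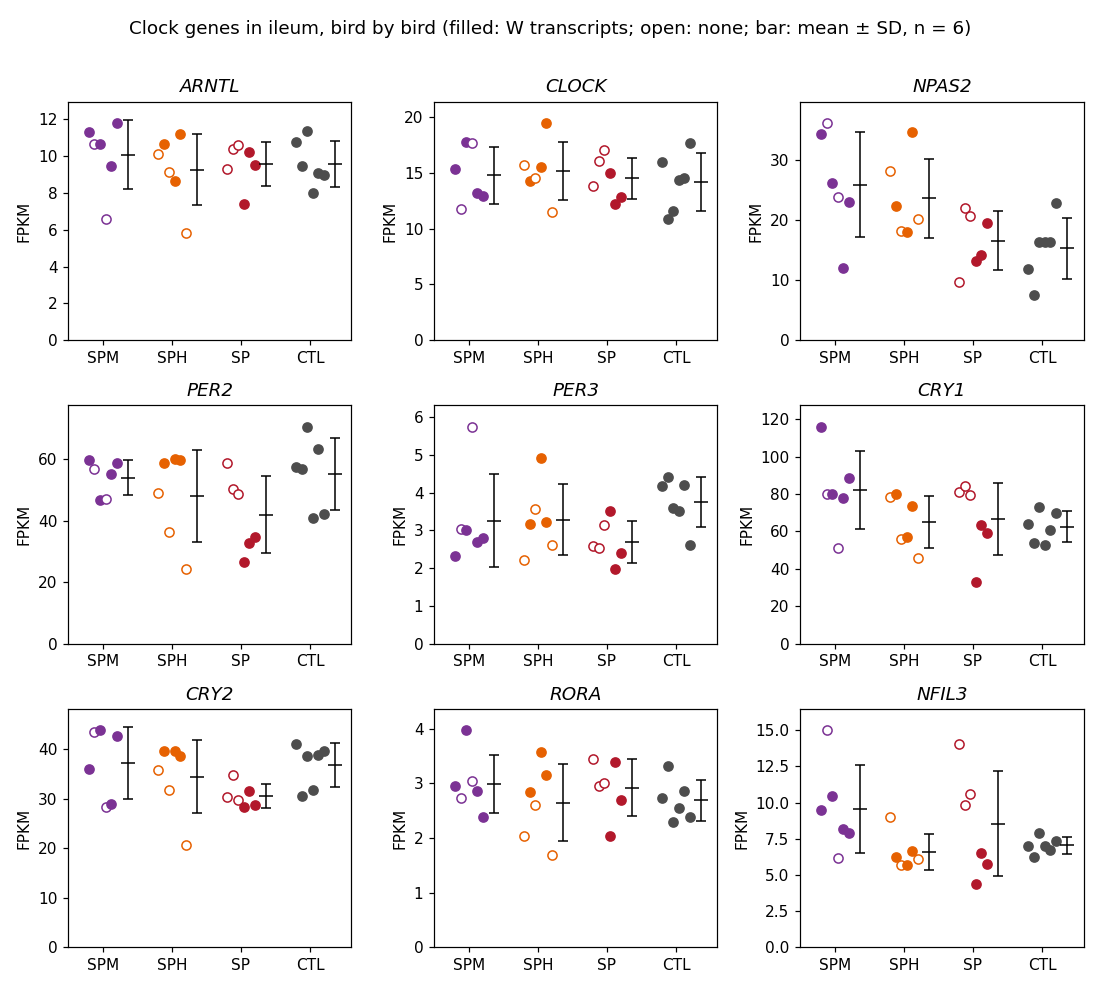
FPKM of the 9 clock genes (linear axes from 0) in each of 24 birds, by group from left to right SPM, SPH, SP and CTL; filled points are birds with W transcripts, open points birds without, and bars give mean ± SD of 6 birds. Groups overlap in each gene, and the low ARNTL and CRY1 points are the same birds, SPM 4, SPH 6 and SP 4.

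The spread from bird to bird differed among the clock genes. The SD of log2 values within groups was 0.49 for NPAS2, 0.40 for NFIL3, 0.39 for PER2, 0.37 for CRY1 and 0.35 for PER3. It was 0.28 for RORA, 0.26 for ARNTL, 0.26 for CRY2 and 0.24 for CLOCK. The median over the 13454 genes with a mean of at least 1 FPKM was 0.25, and 87.3% of those genes had a smaller spread than NPAS2, against 47.3% for CLOCK.

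Challenge with S. pullorum alone was tested as SP vs CTL. With limma, a gene counted as called where its adjusted p was under 0.05 and its log2 fold change was past 0.5 in either direction. None of the 9 clock genes was called, nor was any other of the 17288 genes tested (0%), and limma-voom on the reads recovered from FPKM also called 0 in each of the 6 comparisons. At an unadjusted p under 0.05, 1 clock gene passed, PER3, beside 6.18% of all genes. PER3 averaged 2.69 ± 0.55 FPKM in SP birds and 3.75 ± 0.66 FPKM in CTL birds (SD, n = 6 each). Its log2 fold change was -0.47 (95% interval -0.88 to -0.05, limma unadjusted p = 0.0281, adjusted p = 0.767), and the exact permutation test gave p = 0.0152. CRY2, which averaged 30.5 ± 2.3 FPKM in SP birds and 36.7 ± 4.4 FPKM in CTL birds, had an exact permutation p of 0.0195 but did not pass limma (log2 fold change -0.26, unadjusted p = 0.0788). PER2 had a log2 fold change of -0.42 (interval -0.86 to 0.01), and the exact permutation p was 0.0909. The activators were close to 0, at -0.00 for ARNTL and 0.04 for CLOCK. The median of the 9 was 0.04, beside -0.00 over all genes. PER3 lost its unadjusted call without any 1 of SP 5, SP 6, CTL 1, CTL 2 and CTL 5 (log2 fold change -0.39 without SP 5, limma unadjusted p = 0.0736). Without SPH 6, 3 clock genes passed, but the share of all genes in that fit is not given here.

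Cell type markers moved between the same groups at the unadjusted limit, which 6.18% of all genes passed. Of the T cell list, 7 of 8 genes were past it with positive values in SP vs CTL, and the list summed to 257 to 363 FPKM in SP birds against 167 to 338 FPKM in CTL birds. Of the smooth muscle list, 4 of 8 were past it with negative values (1030 to 1693 FPKM in SP birds and 1617 to 2237 FPKM in CTL birds). The B cell list had 1 of 7 past it with a positive value (63.1 to 592 FPKM in SP birds and 115 to 315 FPKM in CTL birds). No gene of these lists was at 0 in all birds. In bulk tissue, fewer cells of a type and less RNA per cell cannot be told apart, and the part of the cell types in the clock values was not tested.

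Magnolol was tested in challenged birds as SPM vs SP. All 9 clock genes had a positive log2 fold change, with a median of 0.23 beside 0.01 over all genes, but none was called at the adjusted limits (0 of 17288 genes, 0%). The 20 genes of a wider clock list, described below, had a median of 0.008 in this contrast. Several of the 9 genes varied together within groups, so their signs are not independent. The share of all genes with a positive value is not given here. At an unadjusted p under 0.05, 1 clock gene passed, NPAS2, beside 15.4% of all genes. NPAS2 averaged 25.8 ± 8.7 FPKM in SPM birds and 16.5 ± 4.9 FPKM in SP birds (SD, n = 6 each). The log2 fold change was 0.62 (interval 0.06 to 1.17, limma unadjusted p = 0.0305, adjusted p = 0.272), and 5 of 6 SPM birds were above every SP bird. The exact permutation test gave p = 0.0606, which is above 0.05. PER2 averaged 54.0 ± 5.8 FPKM in SPM birds and 42.0 ± 12.5 FPKM in SP birds, with a log2 fold change of 0.41 and an exact permutation p of 0.0714. In the same contrast, 6 of 6 proliferation genes were past the unadjusted limit with negative values (121 to 191 FPKM in SPM birds against 161 to 265 FPKM in SP birds), as were 8 of 8 T cell genes (148 to 269 FPKM in SPM birds against 257 to 363 FPKM in SP birds). So were 6 of 7 B cell genes (56.4 to 149 FPKM in SPM birds against 63.1 to 592 FPKM in SP birds), and the part of these cells in the clock values was not tested. NPAS2 lost its unadjusted call without any 1 of SP 1, SP 4, SP 5, SPM 1 and SPM 2 (log2 fold change 0.47 without SP 1, limma unadjusted p = 0.0917). It also lost it in birds with W transcripts alone (0.53, limma unadjusted p = 0.169). Without SPH 6 or without SPM 4, 3 clock genes passed, but the share of all genes in those fits is not given here. Without SP 2, 145 genes were called in this contrast, none of them a clock gene.

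Honokiol was tested as SPH vs SP. None of the 9 clock genes was called at the adjusted limits, nor were any other genes (0 of 17288, 0%), and 0 clock genes passed the unadjusted limit with limma, beside 8.83% of all genes. NPAS2 again had the largest difference, at 23.5 ± 6.5 FPKM in SPH birds and 16.5 ± 4.9 FPKM in SP birds. Its log2 fold change was 0.52 (interval -0.03 to 1.08, exact permutation p = 0.0606), and 6 of 6 SPH birds were above the SP median. CRY1 differed by -0.00 (interval -0.42 to 0.41) and ARNTL by -0.07 (interval -0.37 to 0.24). In this contrast 8 of 8 T cell genes were past the unadjusted limit with negative values (176 to 282 FPKM in SPH birds against 257 to 363 FPKM in SP birds), as were 5 of 7 B cell genes (49.2 to 305 FPKM in SPH birds against 63.1 to 592 FPKM in SP birds). With 1 of 8 birds left out (SP 2, SP 3, SP 4, SPH 3, SPH 4, SPH 6, SPM 5 or CTL 2), 1 clock gene passed. The share of all genes in those fits is not given here.

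Against unchallenged birds, NPAS2 had the largest difference in both supplemented groups. In SPM vs CTL it averaged 25.8 ± 8.7 FPKM in SPM birds and 15.2 ± 5.1 FPKM in CTL birds (log2 fold change 0.75, interval 0.20 to 1.31, limma unadjusted p = 0.00972, adjusted p = 0.931, exact permutation p = 0.0303). In SPH vs CTL it averaged 23.5 ± 6.5 FPKM in SPH birds and 15.2 ± 5.1 FPKM in CTL birds (log2 fold change 0.66, interval 0.11 to 1.21, limma unadjusted p = 0.0213, adjusted p = 1, exact permutation p = 0.0303). NPAS2 was the single clock gene past the unadjusted limit in each, beside 5.08% of all genes in SPM vs CTL and 3.64% in SPH vs CTL, and no gene was called at the adjusted limits in either (0% each). These comparisons share their CTL birds. The call of NPAS2 in SPH vs CTL was lost without SPH 5 or CTL 2, and in SPM vs CTL it was lost in birds with W transcripts alone (log2 fold change 0.62, limma unadjusted p = 0.0620). Without SPM 4, 4 clock genes passed in SPM vs CTL, but the share of all genes in that fit is not given here.

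Honokiol and magnolol are isomers that differ in where a hydroxyl and an allyl group sit on the rings, and they were fed at the same dose. In SPM vs SPH no clock gene was called at the adjusted limits (0 of 17288 genes, 0%), and 1 of 9 passed the unadjusted limit, NFIL3, beside 4.58% of all genes. NFIL3 averaged 9.54 ± 3.05 FPKM in SPM birds and 6.56 ± 1.25 FPKM in SPH birds (SD, n = 6 each). The log2 fold change was 0.50 (interval 0.04 to 0.95, limma unadjusted p = 0.0345, adjusted p = 0.996), the exact permutation p was 0.0368, and 6 of 6 SPM birds were above the SPH median. For the other 8 genes the interval of the difference included 0. It was -0.31 to 0.24 for CLOCK, -0.18 to 0.43 for ARNTL, -0.17 to 0.42 for CRY2, -0.45 to 0.38 for PER3 and -0.46 to 0.65 for NPAS2. With 6 birds a group, differences between the compounds within these intervals are not excluded. The call of NFIL3 was lost without any 1 of SPH 2, SPH 3, SPH 4, SPH 6, SPM 1, SPM 2 and SPM 3. In birds with W transcripts alone (4 SPM and 3 SPH) NFIL3 kept it (log2 fold change 0.53, limma unadjusted p = 0.00209) but did not pass after adjustment. The share of all genes in that fit is not given here. Of the proliferation list, 5 of 6 genes were past the limit with negative values (121 to 191 FPKM in SPM birds and 167 to 265 FPKM in SPH birds), and their part was not tested.

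**Figure D2:**
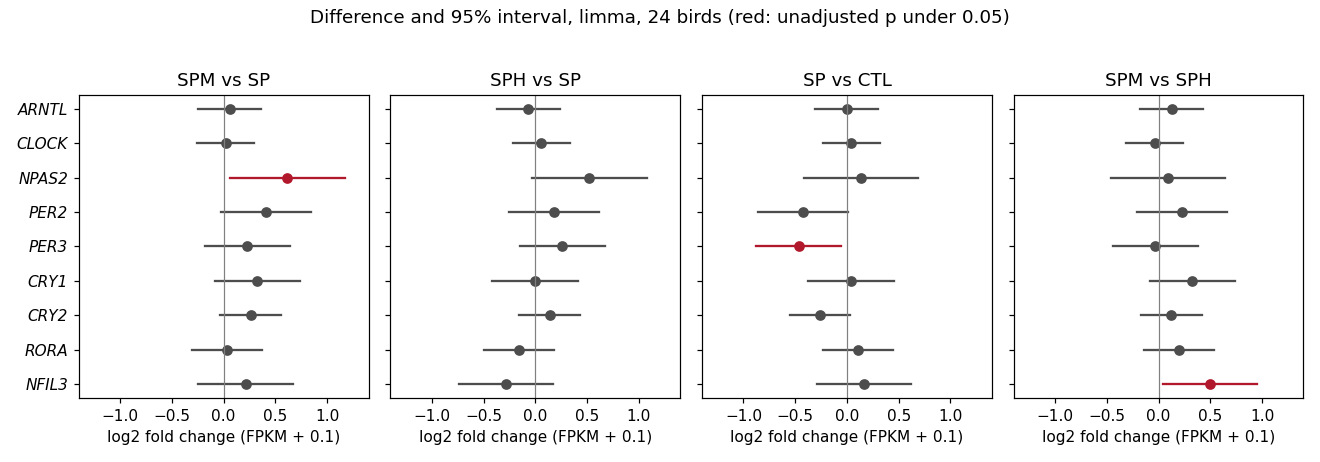
Log2 fold change of each clock gene (points) with its 95% interval (lines) from limma in SPM vs SP, SPH vs SP, SP vs CTL and SPM vs SPH, 6 birds a group, red where the unadjusted p is under 0.05. Only NPAS2 in SPM vs SP (0.62), PER3 in SP vs CTL (-0.47) and NFIL3 in SPM vs SPH (0.50) are red, and no adjusted p is under 0.05.

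Over all 4 groups together, the F test of limma passed 1 of 9 clock genes at the unadjusted limit, NPAS2, beside 8.69% of all genes, and 0% of genes passed after adjustment. For NPAS2 this test of limma gave an adjusted p = 0.493 (unadjusted p = 0.0211). Of 54 exact permutation tests (9 genes in 6 comparisons, two-sided), 5 had a p under 0.05, and in none of them did the groups fail to overlap. These tests share birds between comparisons, and NPAS2 gave 2 of the 5 against the same CTL birds. They were run on the clock genes only, so no share over all genes stands beside the count. The smallest p that 6 birds against 6 allow is 0.00216, and the smallest found was 0.0152.

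Other genes of the clock were taken from a wider list of 23 names, of which 20 matched. None was called at the adjusted limits in any of the 6 comparisons. BTRC, part of the complex that marks PER proteins for destruction in mammals, passed the unadjusted limit in SPM vs SP (log2 fold change -0.19) and SPM vs CTL (-0.19). The repressors BHLHE40 and BHLHE41 ran over all birds from 44.6 to 72.5 FPKM and from 1.32 to 5.53 FPKM. The output activators TEF and HLF, which compete with NFIL3, ran from 22.8 to 35.1 FPKM and from 2.53 to 7.20 FPKM. NR1D1 varied by far more than these, with a highest value 9.17 times its lowest, although at only 26 to 232 reads per bird. It ran from 0.83 to 7.59 FPKM (median 1.47) in SPM birds, 0.95 to 4.24 (median 3.20) in SPH birds, 1.26 to 4.46 (median 1.67) in SP birds and 1.41 to 3.25 (median 2.0) in CTL birds. NR1D2 ran from 15.9 to 42.0 FPKM (median 17.4) in SPM birds, 16.3 to 28.9 (median 23.02) in SPH birds, 12.8 to 24.1 (median 18.1) in SP birds and 18.8 to 27.3 (median 22.4) in CTL birds. SPM 4 was the highest bird for both receptors.

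The difference from bird to bird within a group was shared by several clock genes. With each gene centred on its group mean, the 36 pairs of clock genes had a median Pearson r of 0.30 over 24 birds, with 30 pairs above 0 and 6 below. Of these pairs, 9 had an r of 0.5 or more, and the highest was ARNTL with CRY1 at 0.80. The share of such pairs over all genes is not given here, so the counts are not shown to be particular to clock genes. The lowest was PER3 with CRY1, at -0.53. CLOCK took little part, with an r of 0.08 to ARNTL.

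Whether genes vary with ARNTL was asked with limma across all genes, with group means removed. Of 17287 genes, 4 were called (0.0231%), and CRY1 was among them, as 1 of the 8 other clock genes. At an unadjusted p under 0.05, 1684 genes varied with ARNTL, so many genes outside the clock did so too. CRY1 changed by 1.12 on the log2 scale for each log2 unit of ARNTL (interval 0.73 to 1.51, adjusted p = 0.0358). The other 3 called were RSRP1 (adjusted p = 0.0483) and 2 loci without a symbol. CRY2 (slope 0.76, adjusted p = 0.0628) and PER2 (slope 1.01, adjusted p = 0.189) did not pass. PER3 had a slope of -0.47 (interval -1.06 to 0.12, adjusted p = 0.604). The call of CRY1 did not hold with each bird left out, as it was lost in 11 of 24 such fits, with adjusted p from 0.0213 to 0.145. It was also lost with a pseudocount of 1 (adjusted p = 0.0696), without a filter on low values (adjusted p = 0.0508) and in birds with W transcripts alone (adjusted p = 1.000). The slope stayed between 0.93 and 1.31 in all these fits. With replicate number in the fit the call was lost too, at a lower slope of 0.85 (limma adjusted p = 0.162). PER3 as the gene followed called 0 of 17287 genes (0%), with 571 genes at an unadjusted p under 0.05 and a smallest adjusted p of 0.270.

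In single birds, ARNTL and CRY1 were low together. SPM 4 had 6.61 FPKM of ARNTL and 51.3 FPKM of CRY1, SPH 6 had 5.84 and 46.0 FPKM, and SP 4 had 7.40 and 33.2 FPKM. At the other end, SPM 1 had 11.3 FPKM of ARNTL and 116 FPKM of CRY1, and SPM 6 had 11.8 and 88.5 FPKM. The Pearson r over 24 birds was 0.80 (permutation p = 4e-05) and Spearman's rho 0.73 (p = 0.00013). These permutations exchanged birds within a group without regard to replicate number. With that number in the fit, the limma unadjusted p of CRY1 on ARNTL was 0.0034, against 5.2e-06 without it. Without SPH 6 and SPM 4, the birds farthest from the median of ARNTL, r was 0.75 (permutation p = 0.00059), and without SP 4 as well it was 0.61 (permutation p = 0.00728, 21 birds). Within groups r was 0.89 in SPM, 0.90 in SPH, 0.88 in SP and 0.66 in CTL birds. It was 0.78 in the 16 birds with W transcripts (permutation p = 0.00342) and 0.91 in the 8 without (permutation p = 0.167).

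The other members followed ARNTL less firmly. For CRY2 the r with ARNTL was 0.78 (permutation p = 0.00045, rho 0.54 with p = 0.0137), which became 0.49 without SPH 6 and SPM 4 (p = 0.022). For PER2 it was 0.69 (permutation p = 0.00049, rho 0.57 with p = 0.0065) and 0.57 without those birds (p = 0.0143), but 0.43 without SP 4 as well (p = 0.0779). For PER3 it was -0.35 (permutation p = 0.146, rho -0.18 with p = 0.434). It ranged from -0.58 without SPH 6 (permutation p = 0.0192) to -0.04 without SPM 4. PER3 with CRY1 had an r of -0.53 (permutation p = 0.0159, rho -0.34 with p = 0.124) that rested on single birds, as it was -0.38 (p = 0.14) without SPH 4 and SPM 4, whereas it was -0.78 (permutation p = 0.00424) in the 16 birds with W transcripts. In those 16 birds r with ARNTL was 0.48 for CRY2 (permutation p = 0.0556), 0.64 for PER2 (permutation p = 0.0181) and -0.42 for PER3 (permutation p = 0.194). These permutation p values belong to a family of 25 relations, and the adjusted values are those of the fits across all genes given here.

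**Figure D3:**
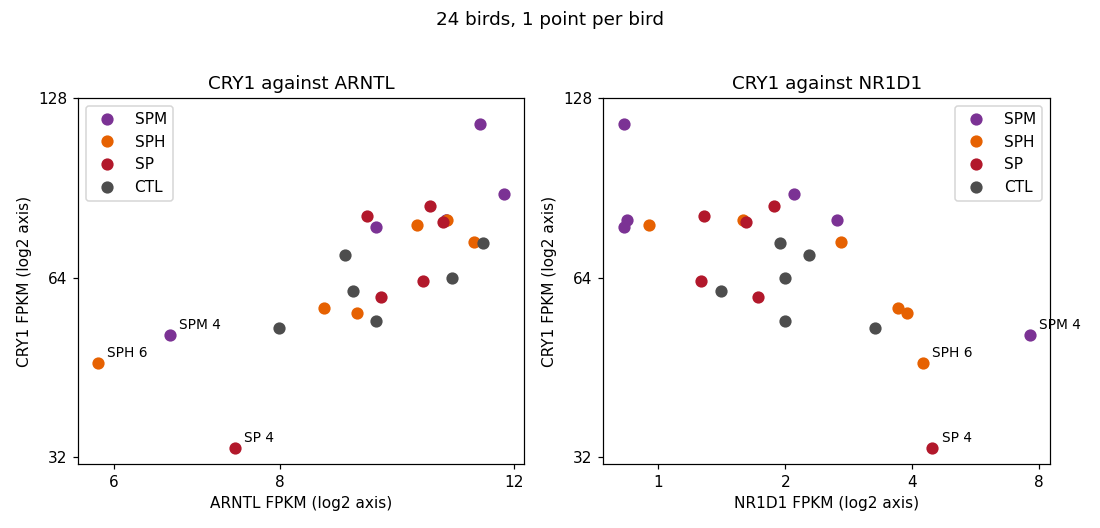
CRY1 against ARNTL (left) and against NR1D1 (right), FPKM on log2 axes, 1 point per bird, coloured by group, with SP 4, SPH 6 and SPM 4 named. CRY1 is higher in birds with more ARNTL (r = 0.80 with group means removed) and lower in birds with more NR1D1 (r = -0.72), and the named birds lie at the low end of CRY1.

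NR1D1, which holds ARNTL down in mammals, was chosen for the same fit after its values by bird were seen. It called 1 of 17287 genes (0.00578%), its relative NR1D2, at 0.38 log2 units for each of NR1D1 (adjusted p = 0.0119). Among the clock genes none was called: CRY1 had a slope of -0.32 (adjusted p = 0.468), ARNTL -0.20 (adjusted p = 0.953) and PER3 0.27 (adjusted p = 0.963). NR1D1 with NR1D2 had an r of 0.84 (permutation p = 5e-05, rho 0.77 with p = 0.00014), 0.72 without SPM 1 and SPM 4 (p = 0.00061), and 0.68 without SP 4, SPH 6 and SPM 4 (p = 0.00208). Without SPM 4 alone NR1D2 was not called (adjusted p = 1.000), and it was called in the other 23 of 24 fits. It was also not called with replicate number in the fit (slope 0.37, limma adjusted p = 0.885) or in birds with W transcripts alone.

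NR1D1 with CRY1 had an r of -0.72 (permutation p = 0.00048, rho -0.61 with p = 0.00295) and of -0.62 without SPM 1 and SPM 4 (p = 0.005). NR1D1 with ARNTL had -0.64 (permutation p = 0.00338, rho -0.47 with p = 0.0331), which was -0.46 without SPM 1 and SPM 4 (p = 0.0687). NR1D1 with PER3 had 0.64 (permutation p = 0.0056, rho 0.35 with p = 0.118), and 0.40 without the same birds (p = 0.0958). NR1D1 with NFIL3 had -0.58 (permutation p = 0.00577, rho -0.45 with p = 0.0406), and -0.32 without SP 4, SPH 6 and SPM 4 (p = 0.171). NR1D1 with PER2 had -0.48 (permutation p = 0.00814, rho -0.45 with p = 0.0271), and -0.30 without those 3 birds (p = 0.175). For CRY2, NPAS2, CLOCK and RORA the r with NR1D1 lay between -0.34 and 0.27, with permutation p of 0.196 or more. Without SP 4, SPH 6 and SPM 4 r was -0.43 for CRY1 (permutation p = 0.0925), -0.18 for ARNTL (permutation p = 0.476) and 0.44 for PER3 (permutation p = 0.0904). These 3 birds were chosen for their extreme values of these genes, which lowers r when they are left out. Without SPM 4 alone, r was -0.64 for CRY1 (permutation p = 0.0033), -0.46 for ARNTL (permutation p = 0.0552) and 0.43 for PER3 (permutation p = 0.0654). In the 16 birds with W transcripts r was -0.69 for CRY1 (permutation p = 0.0253), -0.43 for ARNTL (permutation p = 0.16) and 0.51 for PER3 (permutation p = 0.0815). The 3 birds had 4.24 to 7.59 FPKM of NR1D1, the 3 highest levels of 24. In correlation with their own group, SP 4, SPH 6 and SPM 4 ranked 7, 11 and 14 from the lowest of 24. SPH 6 and SPM 4 had the fewest genes with reads of all birds, at 17997 and 17998. SP 4, at 18357 genes, had the lowest sums of 24 for the enterocyte list (7499.6 FPKM) and the fasting list below (259 FPKM). It had the highest sum for the proliferation list (265 FPKM). The part of these differences in the clock values was not tested.

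**Figure D4:**
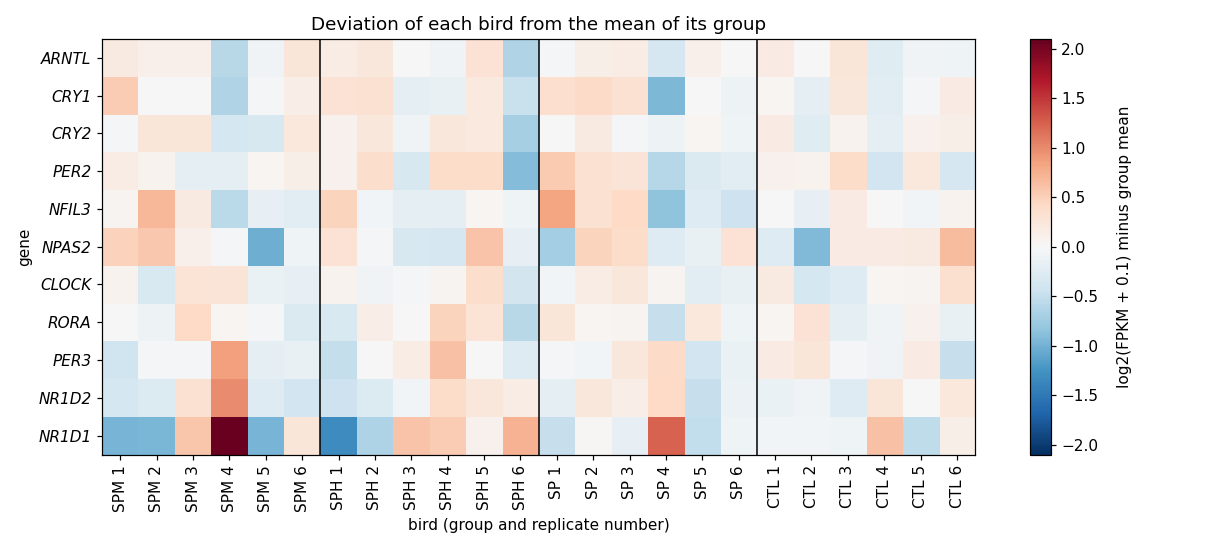
Deviation of each bird (columns, by group from left to right SPM, SPH, SP and CTL) from the mean of its group in log2(FPKM + 0.1), for the 9 clock genes and the receptors NR1D1 and NR1D2 (lines). SPM 4, SPH 6 and SP 4 are low in ARNTL and CRY1 and high in NR1D1.

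The genes most like ARNTL in pattern were sought among 10442 genes with a symbol and a mean of at least 1 FPKM. The 5 highest in Pearson r over 24 birds were RBM39 (0.86), CRY1 (0.80), RSRP1 (0.78), CRY2 (0.78) and ATXN7L1 (0.76). RBM39 had a shallow slope (0.39) and was not called in the fit (adjusted p = 0.0628). Among the lowest were EIF2D (-0.76), FAM96A (-0.75), UMAD1 (-0.73) and MRPL32 (-0.73). Of the receptors, NR1D2 stood at place 10400 and NR1D1 at place 10410 of 10442 from the highest r. For PER3 the 5 highest were SENP2 (0.69), NR1D2 (0.68), STK24 (0.66), SMPD4 (0.65) and NR1D1 (0.64), so that both receptors were among the genes most like PER3. Its 5 lowest were ANO6 (-0.68), ING1 (-0.66), SMOC1 (-0.64), GNAO1 (-0.64) and NSDHL (-0.64).

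Lists of genes that answer to fasting and glucocorticoids (12 of 13 matched) and to immediate stimulation (8 of 10 matched) were set beside the clock genes. No gene of these lists followed ARNTL, PER3 or NR1D1 at an adjusted p under 0.05. The fasting list summed to 332 to 606 FPKM in SPM birds, 318 to 379 FPKM in SPH birds, 259 to 405 FPKM in SP birds and 308 to 425 FPKM in CTL birds. At the unadjusted limit 4 of 12 fasting genes passed with positive values in SPM vs SP, beside 15.4% of all genes. The median log2 fold change over the list was 0.23. In SPM vs SPH 3 passed with positive and 1 with negative values, beside 4.58% of all genes. In SPM vs CTL 2 passed with positive values, beside 5.08%, and in SPH vs SP 1 with a positive value, beside 8.83%. SP 4 was the lowest SP bird at 259 FPKM, whereas SPM 4 at 513 FPKM was the second highest SPM bird and SPH 6 at 343 FPKM was within its group. The immediate early list summed to 143 to 369 FPKM in SPM birds, 151 to 273 FPKM in SPH birds, 115 to 255 FPKM in SP birds and 150 to 237 FPKM in CTL birds. Their part in the clock values was not tested.

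Birds without W transcripts were then set against birds with them, with group means in the fit. Among the clock genes only NFIL3, on chromosome Z, had an unadjusted p under 0.05, with a log2 difference of 0.44 (interval 0.10 to 0.78, limma unadjusted p = 0.0130, adjusted p = 0.333). At the adjusted limit the W split passed no clock gene, beside 2.4% of all genes. Of the called genes, 331 were among the 751 genes of chromosome Z tested, whose median difference was 0.40, and 23 were among the 16464 genes outside Z and W. The value of NFIL3 taken over the groups was thus near the median of its chromosome, but the groups were not alike. In SP the birds without W were all above those with W, whereas in SPM and SPH they overlapped.

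For PER2 the birds without and with W transcripts differed in opposite directions in 2 groups. In SPH, birds without W had 24.4 to 49.0 FPKM and birds with W 58.9 to 60.2 FPKM (n = 3 each). In SP, birds without W had 48.7 to 58.9 FPKM and birds with W 26.6 to 34.7 FPKM (n = 3 each). The SP birds without W were SP 1, SP 2 and SP 3, and those with W were SP 4, SP 5 and SP 6. W transcripts and replicate number therefore cannot be told apart in SP. In SPM, birds without W had 47.0 and 56.8 FPKM and birds with W 46.7 to 59.7 FPKM. The birds thus did not overlap in SPH or SP and overlapped in SPM. The share of all genes without overlap in 3 against 3 birds is not given here. The interaction of W transcripts with group in challenged birds, tested with limma, gave an unadjusted p of 0.000191 for PER2 (adjusted p = 0.210), and 0 of 17288 genes passed after adjustment (0%). At the unadjusted limit 4 of 9 clock genes passed, beside 11% of all genes. The others by limma were CRY1 (unadjusted p = 0.0118, adjusted p = 0.332), NFIL3 (unadjusted p = 0.0449, adjusted p = 0.445) and RORA (unadjusted p = 0.0498, adjusted p = 0.454). CRY1 had 79.2 to 84.4 FPKM in SP birds without W and 33.2 to 63.2 FPKM in SP birds with W. NFIL3 had 9.85 to 14.1 FPKM in SP birds without W and 4.35 to 6.55 FPKM in SP birds with W. Several lists also did not overlap between these SP birds, again without a share over all genes beside them. The fasting list summed to 384 to 405 FPKM without W and 259 to 290 FPKM with W, the immediate early list to 193 to 255 FPKM without W and 115 to 183 FPKM with W, and the enterocyte list to 13810 to 19205 FPKM without W and 7499.6 to 10604 FPKM with W. The B cell list was the other way round, at 63.1 to 155 FPKM without W and 180 to 592 FPKM with W, as were the macrophage list (191 to 277 FPKM without W and 295 to 327 FPKM with W) and the proliferation list (161 to 225 FPKM without W and 257 to 265 FPKM with W). The T cell, smooth muscle and red blood cell lists overlapped in SP. In SPH the proliferation list summed to 208 to 265 FPKM without W and 167 to 206 FPKM with W, the reverse of its order in SP. The immediate early list summed to 192 to 273 FPKM without W and 151 to 189 FPKM with W in SPH, in the same order as in SP. The other lists overlapped in SPH, and the part of all these lists in the clock values was not tested.

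**Figure D5:**
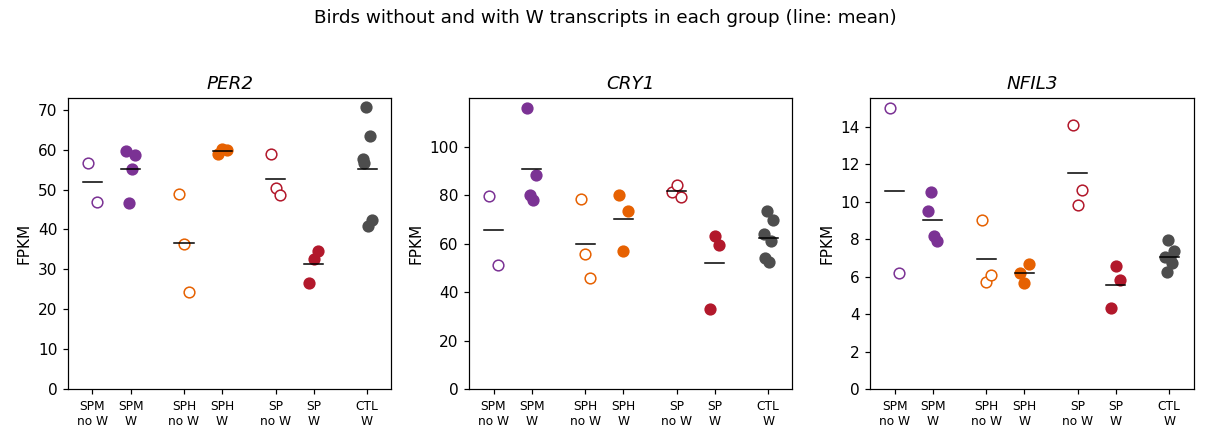
FPKM of PER2, CRY1 and NFIL3 (linear axes from 0) in birds without (open) and with (filled) W transcripts in each group, lines at the mean. PER2 is 48.7 to 58.9 FPKM in SP birds without W and 26.6 to 34.7 FPKM in SP birds with W, and the order is the other way round in SPH.

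With the 16 birds that carry W transcripts alone (4 SPM, 3 SPH, 3 SP and 6 CTL), more clock genes passed the limits against SP. In SPM vs SP, PER2 had 46.7 to 59.7 FPKM in SPM birds and 26.6 to 34.7 FPKM in SP birds, and its log2 fold change of 0.82 (interval 0.46 to 1.18) was called by limma (adjusted p = 0.0423). NFIL3 had 7.88 to 10.5 FPKM in SPM birds and 4.35 to 6.55 FPKM in SP birds, and its log2 fold change of 0.70 (interval 0.39 to 1.00) was called too (adjusted p = 0.0408). The same fit called 0.7% of all genes (121 of 17288), and CRY1 did not pass (log2 fold change 0.84, adjusted p = 0.0579). Lists that did not overlap between the same birds were B cell (56.4 to 149 FPKM in SPM birds and 180 to 592 FPKM in SP birds), T cell (148 to 269 FPKM in SPM birds and 272 to 363 FPKM in SP birds), macrophage (212 to 241 FPKM in SPM birds and 295 to 327 FPKM in SP birds), proliferation (121 to 191 FPKM in SPM birds and 257 to 265 FPKM in SP birds) and fasting (332 to 606 FPKM in SPM birds and 259 to 290 FPKM in SP birds). The enterocyte list overlapped, at 9609 to 18717 FPKM in SPM birds and 7499.6 to 10604 FPKM in SP birds. The share of all genes without overlap between these birds is not given here, and the part of these lists in the calls was not tested. Over all 24 birds neither PER2 (0.41) nor NFIL3 (0.21) was called in this contrast. At the unadjusted limit 4 of 9 clock genes passed in SPM vs SP, beside 18% of all genes, 4 in SPH vs SP beside 14%, and 4 in SP vs CTL beside 9.24%. PER2 was among them in each, with a log2 fold change of 0.94 in SPH vs SP (adjusted p = 0.102) and -0.80 in SP vs CTL (adjusted p = 0.452). These values rest on 3 SP birds, which all 3 comparisons share, and SP 4 is among them.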

How the data were processed

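The authors sequenced ileum RNA and deposited FPKM per gene with gene length and position. The labels name a TruSeq kit and the methods NEBNext Ultra. The submitters' processing notes name GRCg6a, mm8 and Bowtie 0.12.2 without their roles. Of the role of each build, the counting program and strand use, nothing is given in the sources used here. Positions are as deposited. The authors tested counts with DESeq2. As the deposited values are FPKM, limma 3.58.1 (R 4.3.3) with an intensity trend was fitted to log2(FPKM + 0.1) of 17288 genes whose mean FPKM reached 0.1, with 1 mean per group and Benjamini-Hochberg adjustment over all genes. FPKM times length gave whole reads within 0.001 for all 440917 values above 0. Single genes were compared by two-sided exact permutation over 924 regroupings, and correlations by 100000 permutations within groups. W transcripts were called present above a summed FPKM of 100. Fits were tested on simulated data. Genes were named by a rule: all members, the called or preset genes of the wider list, and the 5 most like and 5 most opposite ARNTL or PER3. RSRP1 and BTRC were named for their p values. Some genes that the rule or these limits would name are not reported here. The clock genes and lists were chosen with earlier results of these data known. The alternatives were pseudocounts of 1 and 0.01, a mean of at least 1 FPKM or no filter, quantile normalization, a replicate block, W transcripts as covariate, birds with W transcripts only, each bird left out and the 2 groups only. NR1D1, the W interaction, limma-voom on the recovered reads and the fits without 3 birds were added after seeing the data. Symbols were taken from the table. Genes with a near-identical copy were not sought.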

Additional observations from a re-analysis of the deposited data

Results flagged for a closer look

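In 60 groups of 6 birds (15 clock genes in 4 groups), 1 bird stood apart from the rest of its group in 7 cases, by Dixon's limit of 0.625. That limit gives such a bird in about 1 of 20 groups of normally distributed values. It was applied to FPKM without logs, and the share of all genes flagged in this way is not given here. The count of 7 is thus not shown to be an excess. SPM 4 stood apart with 5.74 FPKM of PER3 and 7.59 FPKM of NR1D1, and SP 4 with 4.46 FPKM of NR1D1. SPH 1 had 8.99 FPKM of NFIL3, which lies on chromosome Z, and this bird had no W transcripts. SPH 3 and SPH 6 also had none, at 5.70 and 6.10 FPKM, beside 5.68 to 6.69 FPKM in SPH birds with W transcripts. BHLHE40 was low in CTL 5 at 50.1 FPKM, and BHLHE41 was high in SPH 3 at 4.29 FPKM and in CTL 2 at 5.53 FPKM. The difference between birds without and with W transcripts was compared among SPM, SPH and SP birds by the interaction test of limma. Its unadjusted p was 0.000191 for PER2, 0.0118 for CRY1, 0.0449 for NFIL3 and 0.0498 for RORA, with adjusted p of 0.210, 0.332, 0.445 and 0.454. None passed after adjustment, and in SP birds W transcripts cannot be told apart from replicate number.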

How the results depend on the processing

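The fits rest on 6 birds a group, so that clock gene differences of any size within the intervals given are not excluded, and RORA and NR1D1 rest on few reads. No clock gene was called in any contrast at the adjusted limits under any alternative but the fit of birds with W transcripts alone. Beside the 0 to 1 clock genes past the unadjusted limit, SP vs CTL had 2 with quantile normalization, 2 with only the 2 groups and 4 with W birds alone. SPH vs SP had 4 with W birds alone and 1 with 2 groups, SPM vs SP 4 and 3, SPM vs CTL 3 and 3, and the F test 4 with W birds alone. Genes called in SPM vs SP were 1 with quantile normalization and 121 with W birds alone, and in SPM vs CTL 1 with 2 groups. Genes that followed ARNTL were 0 with a pseudocount of 1, 1 without a filter, 2 with W transcripts as covariate and 0 with W birds alone, and those that followed NR1D1 were 0 with W birds alone. With each bird left out in turn, clock genes past the unadjusted limit ranged from 0 to 3 in SP vs CTL, 0 to 1 in SPH vs SP, 0 to 3 in SPM vs SP, 0 to 2 in SPM vs SPH, 0 to 1 in SPH vs CTL, 1 to 4 in SPM vs CTL and 1 to 2 in the F test. Genes called in SPM vs SP ranged from 0 to 145, the last without SP 2, and followers from 0 to 6 for ARNTL, 0 to 1 for PER3 and 0 to 2 for NR1D1. The r of PER3 with CRY1 ranged from -0.63 to -0.38, NR1D1 with PER3 from 0.43 to 0.71, NR1D1 with ARNTL from -0.69 to -0.46 and ARNTL with PER3 from -0.58 to -0.037. With W birds alone, r was 0.48 for ARNTL with CRY2, 0.51 for NR1D1 with PER3 and -0.43 for NR1D1 with ARNTL. Without the 2 birds farthest from the median, it was -0.38 for PER3 with CRY1, 0.40 for NR1D1 with PER3 and -0.46 for NR1D1 with ARNTL, and Spearman's rho was -0.34 for PER3 with CRY1 and 0.35 for NR1D1 with PER3. Without SP 4, SPH 6 and SPM 4, r was 0.43 for ARNTL with PER2, -0.39 for PER3 with CRY1, 0.44 for NR1D1 with PER3, -0.18 for NR1D1 with ARNTL and -0.43 for NR1D1 with CRY1. For these alternatives the share of all genes past the unadjusted limit is given only with W birds alone, in SP vs CTL, SPH vs SP and SPM vs SP. Elsewhere a change in the count of clock genes has no such share beside it. The causes of these changes were not tested.

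Over all genes tested, replicate numbers did not pair the birds. Of 36 same-numbered pairs, 1 had a correlation of deviations over 0.1, and 1 of 24 birds matched its own number best. That check was not made on the clock genes alone. For ARNTL, SPM 4, SP 4, CTL 4 and SPH 4 ranked 2, 3, 4 and 5 from the lowest of 24. For NR1D1 these birds ranked 24, 23, 19 and 20. They were more spread for PER2 (9, 2, 6 and 22) and CRY2 (2, 3, 10 and 19). Pairing of the clock genes by replicate number was not tested. With the replicate block, 2 clock genes passed the unadjusted limit in SP vs CTL, 2 in SPM vs SPH and 2 in SPM vs CTL, 1 gene was called in SPM vs SP, and 0 genes followed ARNTL and 0 NR1D1. CRY1 then had a slope of 0.85 on ARNTL (adjusted p = 0.162), and NPAS2 in SPM vs SP an unadjusted p of 0.0504 with limma. The share of all genes past the unadjusted limit with the block is not given here.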
